A study of Solanum lycopersicum with 4 samples.

Results

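The genes described here are 6 tomato genes of the TCP family, 4 of the CINCINNATA (CIN) type, among them LANCEOLATE (LA), and the 2 BRANCHED1 genes BRC1a and BRC1b. They were chosen by identifier, with earlier results of these data known, and all 6 were found among the 34722 genes of the expression table. LA is Solyc07g062680.1, BRC1a is Solyc03g119770.2 and BRC1b is Solyc06g069240.1. The other CIN-type genes are given by identifier alone, Solyc07g053410.2, Solyc08g048370.2 and Solyc08g048390.1. The files do not pair identifiers with gene names, so the names could not be checked there. The tomato gene table of RefSeq (assembly SLM_r2.1) matched 0 identifiers but places genes named lanceolate, BRC1a and BRC1b on chromosomes 7, 3 and 6, the chromosome numbers that the 3 identifiers carry.

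TCP proteins are plant transcription factors that bind DNA through a shared TCP domain and act on cell proliferation and growth. CIN-type members promote the maturation of leaf tissue, and LA is known in tomato as a target of the microRNA miR319 whose gain of activity turns the compound leaf into a simpler one. BRANCHED1 members hold axillary buds in arrest, and in tomato BRC1b is the copy with the stronger known effect on branching.

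RNA of dissected shoot apical meristems, the dome of dividing cells at the shoot tip, was sequenced from wild-type (WT) tomato seedlings grown in a greenhouse and fixed in acetone. The transitional group, meristems at floral transition, held 2 libraries (replicates A and B), and the vegetative group, meristems that had produced 6 leaves, held 2 libraries (replicates C and D). Both groups carry the same WT genotype, and the labels name neither the cultivar nor whether the replicates came from separate sets of plants, so p-values cover the spread between libraries alone, part of which may be technical. The transitional libraries held 21977345 and 22094423 reads in genes and the vegetative ones 16141074 and 23043526, and 0 reads in a library allow a level of up to 0.13 to 0.19 CPM (3 reads, counting error only).

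The stage labels were read against marker lists recalled from published tomato nomenclature, chosen with the same knowledge. Of 8 floral transition genes 5 rose and none fell in transitional meristems by limma, where 2.7% of all genes tested rose; the list median was 2.77 on the log2 scale. Leaving out transitional replicate A, 3 rose, without B 4 rose and 1 fell, and with no filter, or without vegetative replicate C or D, 0 were called. In normalised counts, that list summed to 15400 and 12698 in transitional A and B, against 9543 and 9470 in vegetative C and D. Such sums rest mostly on the abundant genes, and the near-equal vegetative sums hide a difference between replicates. Vegetative C stood above D by a median of 0.82 on the log2 scale over the list, against -0.003 over all genes tested. All 7 meristem genes (KNOX, WUSCHEL and CLAVATA classes) were detected in all 4 libraries. The leaf photosynthesis list, a sign of expanding leaf tissue, summed to 11215 and 6733 in transitional A and B, against 8024 and 10160 in vegetative C and D. In these sums, which also rest mostly on the abundant genes, transitional A stood above and B below both vegetative libraries. Single genes varied. Of the 14 tested, the groups did not overlap in 3, beside 49.3% of all genes tested. Transitional libraries were higher in 1 of these, beside 25% of all genes tested. Of the 15 identifiers listed, 1 had no read.

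The comparison of the stages addressed whether leaf maturation genes and bud arrest genes differ between transitional and vegetative meristems. None of the members passed the test in either direction. Of the 5 members that passed the filter on low values (5 normalised counts or more on average), 0 were called by limma at a Benjamini-Hochberg adjusted p under 0.05, against 3.89% of the 19607 genes tested (2.7% called higher and 1.19% called lower in transitional meristems). At an unadjusted p under 0.05 there were 0 members, against 17.7% of the genes tested. edgeR and DESeq2 on the recovered reads also called 0 members, against 4.13% and 4.45% of the genes they tested. Both tools had 0 members at an unadjusted p under 0.05, against 18.1% and 11.6% of the genes they tested. The sixth member, Solyc07g053410.2, fell below the filter. In bulk samples, fewer cells of a type and less RNA per cell cannot be told apart.

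**Figure D1:**
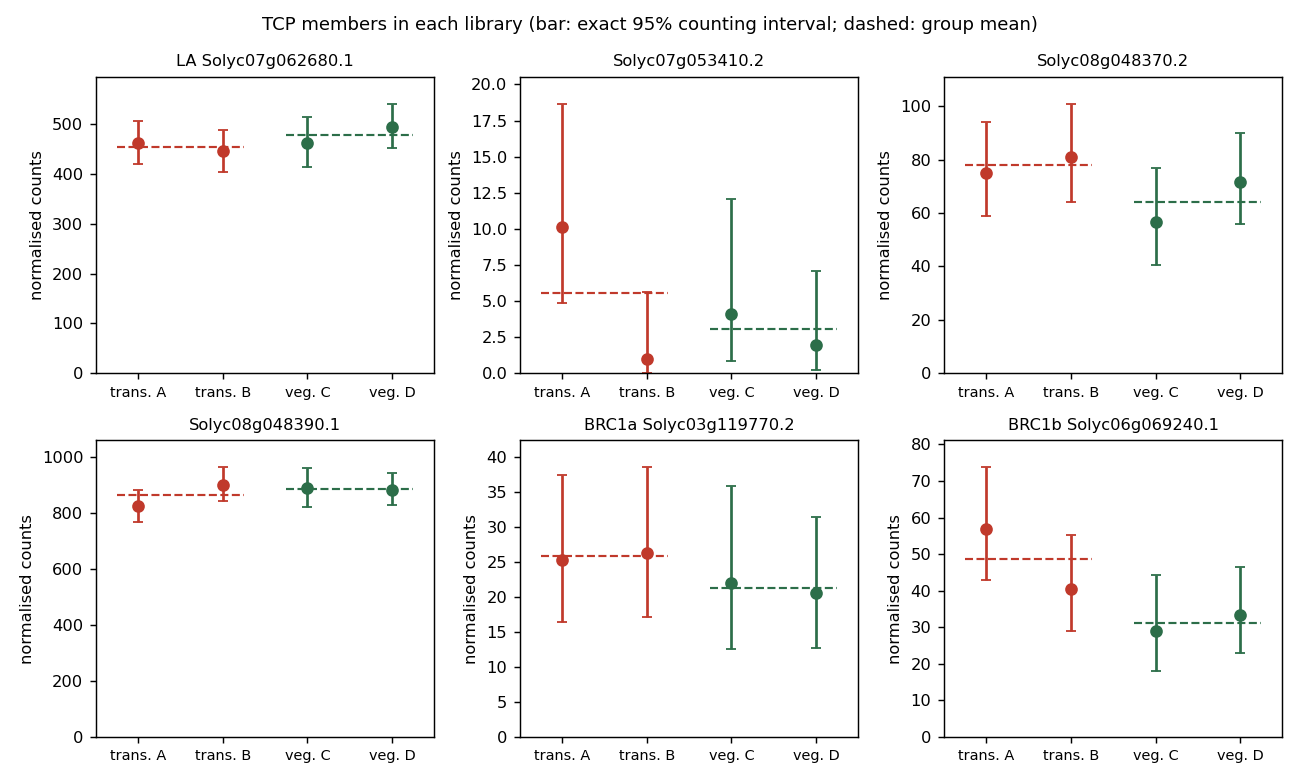
Normalised counts (y axis, from 0, a different scale in each panel) of the 6 TCP genes in transitional A and B and vegetative C and D (x axis). Points are single libraries, bars are exact 95% counting intervals and dashed lines are group means. LA and Solyc08g048390.1 lie almost level across the libraries. BRC1b, BRC1a and Solyc08g048370.2 lie higher in both transitional libraries, as do 25% of all genes tested.

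LA, the CIN-type gene that sets leaf complexity, stood at nearly the same level at both stages. Transitional A and B held 461 and 444 normalised counts of LA, against 461 and 494 in vegetative C and D. The groups overlapped, since transitional A lay just above vegetative C. The means were 453 ± 12.0 in transitional and 477 ± 23.5 in vegetative meristems (SD, n = 2 each). The log2 change was -0.08 (SE 0.10, 95% interval -0.31 to 0.16), with an adjusted p of 0.756 by limma. This interval runs from 0.807-fold to 1.12-fold, and changes of LA beyond that range lie outside it.

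Solyc08g048390.1 was also nearly level and rested on the most reads of the members, 3248 over the 4 libraries. Transitional A and B held 823 and 900 normalised counts, against 889 and 882 in vegetative C and D. Both vegetative values lay between the transitional ones. Its log2 change was -0.04 (SE 0.09, 95% interval -0.24 to 0.16), with a limma adjusted p of 0.86, and the difference between the transitional replicates, 0.13 on the log2 scale, was larger. Without transitional replicate A the log2 change was 0.024, so its direction rested on that library.

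Solyc08g048370.2, whose identifier number lies close to that of Solyc08g048390.1 on chromosome 8, had fewer reads and stood slightly higher in transitional libraries. Its normalised counts were 75.0 and 80.9 in transitional A and B, against 56.6 and 71.4 in vegetative C and D. The groups did not overlap, as in 49.3% of all genes tested, but vegetative D lay nearer to transitional A than to vegetative C. The log2 change was 0.29 (SE 0.22, 95% interval -0.23 to 0.80), with a limma adjusted p of 0.558. Without vegetative replicate C it was 0.12, and without D 0.46.

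How the reads of this chromosome 8 pair divided between its genes is a measure that needs no scaling between libraries. Solyc08g048370.2 took 8.35% (Clopper-Pearson 95% interval 6.61% to 10.4%) and 8.25% (6.59% to 10.2%) of the pair's reads in transitional A and B. In vegetative C and D it took 5.99% (4.33% to 8.03%) and 7.49% (5.91% to 9.32%). The share was a little higher in both transitional libraries, but the counting intervals of all 4 libraries overlapped. The genes listed just before and after the pair in identifier order, Solyc08g048360.1 and Solyc08g048400.2, stood between 0 and 2.02 normalised counts. The sources used here do not say whether the counting could split reads between similar TCP copies, so values of this pair are uncertain to that extent.

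Solyc07g053410.2, the fourth CIN-type gene, was close to silent in the meristem at both stages. It had 10 reads in transitional A and 1 in transitional B, against 3 in vegetative C and 2 in vegetative D. As normalised counts these were 10.1 and 1.01 in transitional libraries, against 4.14 and 1.96 in vegetative ones. Both vegetative values lay between the transitional ones, and the counting intervals of transitional A (4.86 to 18.6) and B (0.026 to 5.64) overlapped. On the log2(value + 1) scale the difference of the means was 0.28, which became -0.95 without transitional replicate A and -0.12 without vegetative replicate D, but 1.51 without transitional replicate B and 0.68 without vegetative replicate C. With no filter, limma gave it an adjusted p of 0.911, and DESeq2 put its log2 change at 0.89 (unadjusted p = 0.606). No difference in this gene was detectable at this depth.

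Of the bud arrest genes, BRC1b had the largest difference among the tested members. Its normalised counts were 56.8 in transitional A and 40.5 in transitional B, against 29.0 and 33.3 in vegetative C and D. Both transitional libraries lay above both vegetative ones, as in 25% of all genes tested. The means were 48.6 ± 11.5 in transitional and 31.1 ± 3.03 in vegetative meristems (SD, n = 2 each), a ratio of 1.56. The log2 change was 0.61 (SE 0.29, 95% interval -0.07 to 1.29), with an unadjusted p of 0.0715 and an adjusted p of 0.333 by limma. By edgeR the adjusted p was 0.33 and by DESeq2 0.901. Its absolute log2 change was larger than that of 88.7% of the genes tested. That rank is over genes of all levels, and changes scatter more widely at low counts. BRC1b averaged 39.9 normalised counts, above the mean of only 16.0% of the genes tested.

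The size of the BRC1b difference depended on which transitional library was used. The transitional replicates differed by 0.48 on the log2 scale and the vegetative ones by -0.19 (C minus D). The counting intervals of BRC1b were 42.9 to 73.7 and 28.9 to 55.1 in transitional A and B. In vegetative C and D they were 17.9 to 44.3 and 23.0 to 46.5, and all of these intervals overlapped. Without transitional replicate B the log2 change was 0.85 (limma unadjusted p = 0.0372, adjusted p = 0.2), and without transitional replicate A it was 0.37 (adjusted p = 0.558). Over the alternatives that kept all 4 libraries, the adjusted p of BRC1b ran between 0.323 (limma, pseudocount of 5) and 0.901 (DESeq2). All 14 tested leaf photosynthesis genes also had their higher transitional value in replicate A, with a median difference from B of 0.91 on the log2 scale. Over all 19607 genes tested, A lay above B in 10310, with a median difference of 0.01. BRC1a went the other way, at -0.05 (A minus B). The part of leaf photosynthesis genes in the BRC1b values was not tested.

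BRC1a differed less. Its normalised counts were 25.3 in transitional A and 26.3 in transitional B, against 22.1 and 20.5 in vegetative C and D. The groups did not overlap, with transitional libraries higher as in 25% of all genes tested, and replicates lay close together in both. The means were 25.8 ± 0.683 in transitional and 21.3 ± 1.08 in vegetative meristems (SD, n = 2 each). The log2 change was 0.27 (SE 0.32, 95% interval -0.48 to 1.01), with a limma adjusted p of 0.724. BRC1a rested on 88 reads over the 4 libraries and BRC1b on 151. The counting intervals of BRC1a, 16.4 to 37.4 and 17.2 to 38.5 in transitional libraries and 12.6 to 35.8 and 12.7 to 31.4 in vegetative ones, were wider than the gap between the groups.

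**Figure D2:**
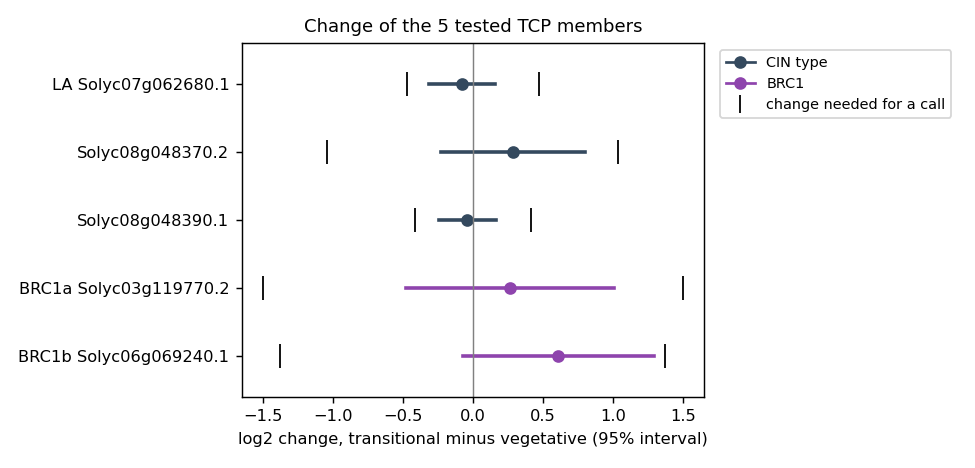
Log2 change of the 5 tested members, transitional minus vegetative (x axis), with 95% intervals from limma (lines) and the change that would have been called at each gene's standard error (vertical ticks). All 5 intervals include 0 and no point lies beyond its ticks; the ticks stand at 0.41 to 0.47 for the abundant CIN-type genes and at 1.37 to 1.50 for the BRC1 genes.

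How large a difference would have been called varied between the members. At the standard errors of this fit, LA needed a 1.39-fold and Solyc08g048390.1 a 1.33-fold difference between the groups. Solyc08g048370.2 needed 2.06-fold, BRC1b 2.59-fold and BRC1a 2.83-fold. The intervals reached 2.45-fold higher in transitional meristems for BRC1b and 2.01-fold for BRC1a, so a 2-fold rise of either lies within them. For LA and Solyc08g048390.1 the upper ends were both 1.12-fold. With 2 libraries against 2, the exact permutation test of a single gene cannot go below p = 0.333 (two-sided) and was not used.

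Leaf maturation genes and bud arrest genes were also set against each other within each library, which removes any scaling between libraries. The 3 tested CIN-type genes had log2 changes from -0.08 to 0.29 and a median of -0.04, the BRC1 genes 0.27 and 0.61, beside a median of 0.01 over all genes tested. For every 100 LA reads there were 12.3 and 9.11 BRC1b reads in transitional A and B, against 6.29 and 6.73 in vegetative C and D. Transitional A (95% interval 9.15 to 16.3) lay farthest from the vegetative libraries (3.84 to 9.77 and 4.61 to 9.53), and the interval of transitional B (6.42 to 12.6) overlapped all others. BRC1a had 5.49 and 5.92 reads per 100 LA reads in transitional A and B, against 4.79 and 4.16 in vegetative C and D, with overlapping intervals throughout. The CIN-type Solyc08g048370.2 had 16.3 and 18.2 reads per 100 LA reads in transitional A and B, against 12.3 and 14.5 in vegetative C and D. Standing higher relative to LA in both transitional libraries was thus not particular to the BRC1 genes. Solyc08g048390.1 had 178 and 203, against 193 and 179, and its groups overlapped. Whether the classes differ in their change was not tested.

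**Figure D3:**
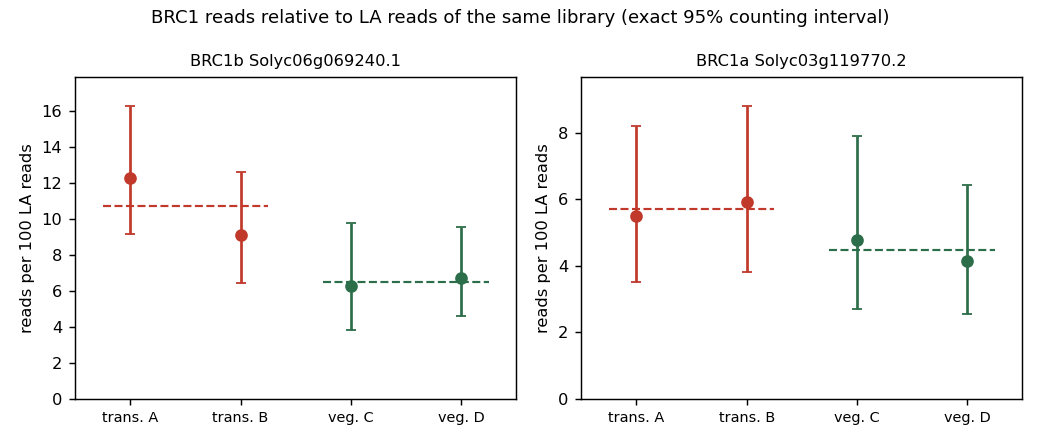
Reads of BRC1b (left) and BRC1a (right) per 100 LA reads of the same library (y axes, from 0) in transitional A and B and vegetative C and D (x axis). Points are single libraries, bars exact 95% counting intervals and dashed lines group means. Both genes lie higher relative to LA in both transitional libraries, as did the CIN-type Solyc08g048370.2 (not drawn). The bar of transitional A for BRC1b overlaps those of the vegetative libraries only at its lower end.

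The balance between the BRC1 genes overlapped between stages. BRC1a took 30.9% (Clopper-Pearson 95% interval 21.1% to 42.1%) and 39.4% (27.6% to 52.2%) of the reads of both BRC1 genes in transitional A and B. In vegetative C and D it took 43.2% (27.1% to 60.5%) and 38.2% (25.4% to 52.3%). These shares compare libraries and not the genes with each other, since gene lengths are not given in the files.

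The rest of the TCP family was read from a list of 26 further identifiers, recalled from published nomenclature and not checked against names. Of these 3 had no read in any library and 17 were tested. None was called in either direction by limma, nor among the 15 tested by edgeR or the 18 by DESeq2. At an unadjusted p under 0.05 there were 6 of 17 by limma, 4 of 15 by edgeR and 3 of 18 by DESeq2, beside 17.7%, 18.1% and 11.6% of all genes each tool tested. Their median log2 change was 0.07, with a range of -0.88 to 3.58, and 9 of the 17 stood higher in transitional meristems. Solyc03g045030.1 and Solyc12g014140.1, picked out after their values were seen, had low levels and the lowest unadjusted p among them. In normalised counts, the first stood at 19.3 and 6.07 in transitional A and B and had no read in vegetative C and D, where up to 4.14 and 2.93 could have gone unseen. Its log2 change was 3.58 (limma adjusted p = 0.0729), and 4.34 without transitional replicate B, the lower one. With no vegetative read, it passed the filter through its transitional values alone, so this p-value is not read as support for a difference. The second stood at 51.7 and 32.4 in transitional A and B, against 5.52 and 20.5 in vegetative C and D (limma adjusted p = 0.165).

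**Figure D4:**
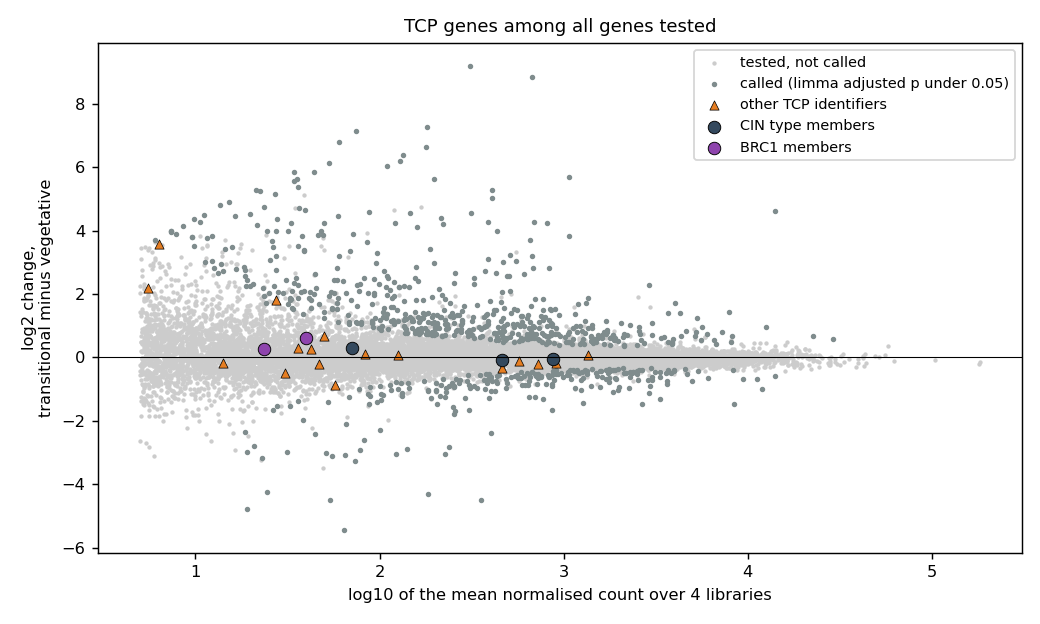
Log2 change, transitional minus vegetative (y axis), against the log10 of the mean normalised count over the 4 libraries (x axis) for the 19607 genes tested. Dark grey points were called by limma, triangles are the 17 tested other TCP identifiers and large circles the 5 tested members; all TCP points are among the genes that were not called, and the wider scatter at low counts includes the BRC1 genes.

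Genes with the most similar patterns were sought by the Euclidean distance between centred log2 profiles over the 4 libraries, among genes averaging 100 normalised counts or more. The nearest to LA were Solyc11g065350.1 and Solyc02g085420.2 (distances 0.0074 and 0.0082, against a median of 0.23 over 14599 genes). The nearest to BRC1a were Solyc01g086950.2 and Solyc04g077970.2 (0.0056 and 0.010, against a median of 0.35 over 14600 genes). Among the members, Solyc08g048390.1, the other abundant one, was nearest to LA at 0.16, but 24.2% of the genes compared lay nearer. The remaining members lay at distances of 0.38 to 1.86 from LA; they have 16 to 268 reads each, and counting error alone adds to such distances. Profiles of 4 libraries are short, so many genes lie close to any flat pattern such as that of LA. The profile of BRC1a rests on 16 to 26 reads in each library, so which genes lie nearest to it is uncertain by that counting error.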

How the data were processed

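The members and gene lists were chosen with earlier results of these data known. The table deposited by the authors holds 1 signal value per gene in each library, counts scaled by a size factor. Without roles or order, the submitters' processing notes list DESeq2 1.6.3, HTSeq 0.6.1p1 and TopHat2 2.0.10, and the sources used here give no genome build, annotation or handling of strand. Of the values, 100% in each library were whole multiples of the smallest one (relative tolerance 1e-06), so reads and size factors (0.987, 0.988, 0.725 and 1.02 for transitional A and B and vegetative C and D) were recovered.

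The whole table was fitted with limma 3.58.1 (trend; R 4.3.3) on log2(value + 1) with group as the only term, for genes averaging 5 normalised counts or more, and p-values were adjusted by Benjamini-Hochberg over all 19607 genes. Fold changes on this scale understate the change of low genes. The vegetative libraries have the letters C and D in the titles, which are used here, but A and B in the columns. edgeR 4.0.16 (quasi-likelihood), DESeq2 1.42.0, other pseudocounts, filters and scalings, and leaving out each library were alternatives, and the code was tested on simulated data. Named genes were all 6 members and, for likeness of pattern, the 2 genes nearest to LA and to BRC1a. Picked after their values were seen were 2 further TCP identifiers, the single called genes of the boundary and strigolactone lists, and the rows next to the chromosome 8 pair. Intervals on reads cover counting error only. The mutant in the study's design is not analysed here.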

Additional observations from a re-analysis of the deposited data

How the results depend on the processing

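Under all 12 alternatives, 0 members were called higher and 0 lower. The log2 changes of LA, Solyc08g048370.2, BRC1a and BRC1b kept their direction, with ranges of -0.13 to -0.03, 0.12 to 0.46, 0.22 to 0.32 and 0.37 to 0.85, and leaving out 1 library gave these ends. Solyc08g048390.1 ranged from -0.11 to 0.024 and turned upward only without transitional replicate A. Solyc07g053410.2 ranged from -0.95 to 1.51. Over all genes, 529 were called higher and 233 lower; with no filter these were 6 and 1, and leaving out 1 library gave 0 to 776 higher and 0 to 478 lower. Without vegetative replicate C or without D no gene of the table was called (1577 and 1867 at an unadjusted p under 0.05), so those settings cannot bear on the members; the lone library of a group was assumed to vary like the other group. With no filter so few genes were called that this setting, too, bears little on the members. The read shares do not change with scaling, and no scaling moved the median of all genes by over 0.1. No paired analysis was possible because the titles share no replicate letter between the groups. Read number limits the BRC1 genes and Solyc07g053410.2 most.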

Other observations

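Genes of neighbouring functions were read from lists recalled from published nomenclature, by count. Of the 3 organ boundary and axillary meristem genes, which act where leaves and side shoots form, 1 rose and none fell in transitional meristems. That gene, Solyc11g069030.1, had normalised counts of 1852 and 1478 in transitional A and B, against 782 and 522 in vegetative C and D (log2 change 1.37, SE 0.19, limma adjusted p = 0.0119). It was called also without transitional replicate A and without B, and by edgeR and DESeq2, but not with no filter or without vegetative replicate C or D, where 0 of the list were called. The other members had log2 changes of -0.14 and 0.09.

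Of 6 identifiers listed for strigolactone synthesis and perception, a hormone pathway that restrains branching, 2 had no read in any library and 3 were tested. Among these 1 rose and none fell. It was Solyc04g077860.2, with normalised counts of 128 and 122 in transitional A and B, against 56.6 and 55.8 in vegetative C and D (log2 change 1.14, SE 0.19, limma adjusted p = 0.0209). Without transitional replicate A 0 of the 3 strigolactone genes were called, with 2 at an unadjusted p under 0.05, while edgeR and DESeq2 on all libraries called 1; with no filter, or without vegetative replicate C or D, 0 were called. The 7 meristem genes had a median log2 change of -0.24, with 2 lower and none higher; without transitional replicate A 4 were lower, and with no filter, or without vegetative replicate C or D, 0 were called. Beside these lists, 3.89% of all genes tested were called.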
